A study of Mus musculus with 36 samples.

Results

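The comparison described here sets mouse Th1 cells that received a retrovirus without an insert (empty virus) beside Th1 cells that received no virus. It covers 12 of the 36 libraries of the series: 8 empty-virus libraries and 4 untransduced libraries. Naive CD4+ T cells from mouse spleen were activated through CD3 and CD28 and cultured with IL-12 and IL-2 for 6 days, and their total RNA was sequenced. The WT libraries carry the strain label C57BL/6J, and the KO libraries come from the Ets1-SE-KO strain. The untransduced cells gave 2 WT and 2 KO libraries, and the empty-virus cells gave 4 WT and 4 KO libraries.

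Libraries were chosen by the transduction label and by genotype and B number in the names of the deposited tables. For the 4 KO empty-virus libraries the title and the strain label name WT cells with an Ets1 virus, against the transduction label and the table's name, so their genotype rests on the table's name and on the check of Ets1 given below. The T numbers of an empty-virus group (2 libraries each) were summed within genotype and B number. This left 4 sources (WT B1, WT B2, KO B1 and KO B2), each with 1 untransduced and 1 empty-virus sum, or 8 sums in all. B1 and B2 go with the letters M and F in the tables' names, so B number and sex cannot be told apart. The labels give the age of no mouse. They do not say when or how cells were transduced, whether transduced cells were sorted or what the vector carries, so the virus and the handling that goes with it cannot be told apart. The B1 libraries held Uty, a gene of the Y chromosome, and at most 0.251 raw CPM of Xist, and the B2 libraries held 204 to 362 raw CPM of Xist and no count of Uty, so B1 and B2 did not come from 1 animal. No label says whether a source was 1 animal or a pool, or that its sums were separate cultures, so a p-value here reflects the spread among these sums and part of it may be technical.

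Retroviral vectors used in mouse T cells commonly enter through a surface receptor, are copied into DNA and integrate into the genome of dividing cells, which is why T cells are activated before transduction. Cells can answer viral nucleic acid with type I interferon, which acts through factors such as STAT2 and IRF9 on antiviral genes. Restriction factors such as the IFITM membrane proteins, APOBEC3 and SAMHD1 act at entry and at copying of the viral genome. An empty virus is the usual control for a virus that carries a gene, and its distance from untransduced cells is the distance that such a control subtracts.

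Total gene counts were 1598409 to 6844944 per library and 1813288 to 10412423 per sum. The KO B2 source had both the shallowest untransduced sum and the deepest empty-virus sum. Markers of CD4 T cells summed to 1550 to 1880 raw CPM (a gene's counts scaled to a common library total) in untransduced sums and 1510 to 1820 in empty-virus sums. Of 6 NK cell markers, Klra4, Klra8 and Ncr1 had no count in any sum, and the list summed to 3.54 to 9.04 raw CPM untransduced and 3.61 to 7.97 with the virus. Macrophage and monocyte markers summed to 52.2 to 77.3 raw CPM untransduced and 54.7 to 76.4 with the virus, plasma cell markers to 18.3 to 37 and 16.6 to 35.2, and B cell markers to 12.8 to 23.7 and 13 to 19.4. Gamma-delta T cell markers went from 8.79 to 16.3 raw CPM in WT B1 and from 8.77 to 8.66 in WT B2. In KO B1 and KO B2 they went from 1.09 to 1.6 and from 1.1 to 2.02. Endothelial markers were higher with the virus in each source. They went from 7.54 to 10.3 raw CPM in WT B1 and 6.14 to 7.22 in WT B2. In KO B1 they went from 7.35 to 7.46 and in KO B2 from 8.27 to 15.3. Epithelial and kidney markers went from 3.31 to 8.55 raw CPM in KO B2. They went from 10.6 to 9.06 in KO B1, 1.26 to 1.06 in WT B1 and 1.31 to 0.361 in WT B2. CD8 T cell markers summed to 2.51 to 5.7 raw CPM untransduced and 3.72 to 6.82 with the virus, and dendritic cell markers to 4.82 to 7.89 and 4.8 to 9.26. Neutrophil and mast cell markers summed to at most 1.46 raw CPM, and erythroid and platelet markers to at most 0.551. Of the tested markers of all lists only Thy1 passed, and only in the paired fit described below. The part of other cell types in the results was not tested. In bulk RNA, fewer cells of a type and less RNA per cell cannot be told apart.

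Gm27162, a lincRNA gene on chromosome 9 like Ets1, had no count in the 4 KO empty-virus libraries and none in the 2 KO untransduced libraries, against 59 counts over the 4 WT empty-virus libraries. Pooled, it was at least 18.6-fold lower in the KO than in the WT empty-virus libraries, from a floor of 3 counts over the group. Ets1, which encodes a transcription factor of the T lineage, was at 189 to 269 raw CPM in the KO empty-virus libraries and at 314 to 391 in the WT empty-virus libraries. KO libraries given the Ets1 virus were at 384 to 469 raw CPM. KO untransduced libraries were at 214 to 239 raw CPM. The 4 libraries with conflicting labels thus lay on either side of the KO untransduced libraries and below the 4 WT empty-virus, the 2 WT untransduced and the 4 KO Ets1-virus Th1 libraries.

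Few genes passed the test between empty-virus and untransduced Th1 cells. With genotype and B number as factors (additive fit), edgeR's quasi-likelihood test with Benjamini-Hochberg adjustment called 2 of 10804 genes at adjusted p under 0.05, which is 0.0185%. Both were higher with the virus: Ifitm1 and Myo1f. Neither passed without the untransduced WT B1, KO B1 or KO B2 sum or without the empty-virus WT B1 sum, with adjusted p up to 0.319 by the same test. DESeq2 called 4, adding Hist1h1b and Thy1. At unadjusted p under 0.05 there were 319 genes higher and 312 lower. The median log2 fold change of all genes was -0.00287.

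What genotype and B number leave correlated across genes between the sums of a source (r = 0.311). A second fit therefore compared the virus within each source (paired fit). It called 33 genes higher (0.305%) and 13 lower (0.12%). DESeq2 with sources paired called 21 higher and 2 lower, and the paired edgeR fit of unstranded counts called 22 higher and 3 lower. Of the 46 genes, 5 also passed in each of 8 other paired fits, which took DESeq2, unstranded counts, upper-quartile scaling or T number 1 only, or left out 1 source: Ifitm1, Myo1f, Hist1h1b and Thy1, higher, and Nrn1, lower. Of the 33, 21 were clustered histone genes and 12 were other genes. The other higher genes include Ifitm1, Myo1f, Adam8, Gzma, Thy1, Serpine2, Tnfrsf8, S100a6, Tfrc, Tubb4b and H2afx. The lower genes include Nrn1, Stat2, Usp18, Trim30a, Foxp1, Tcf7, Selp, Rgs2, Maged2, Nfat5 and Malat1. Genes that only the paired fit called are outside the rule for named genes unless they belong to a gene list, and they were chosen after their values were seen.

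**Figure D1:**
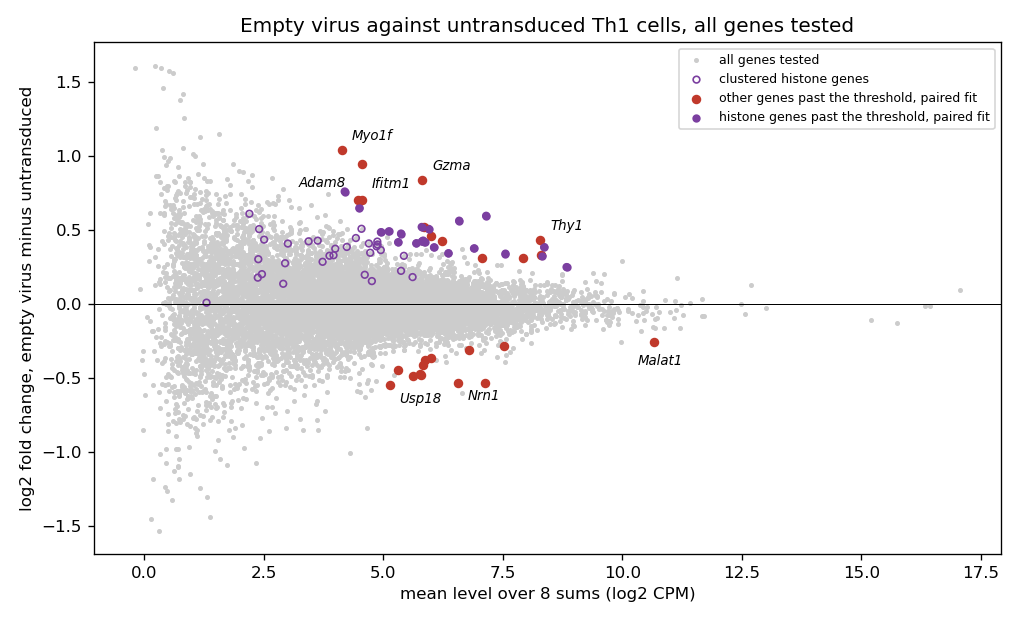
Each point is a gene: the x axis gives its mean level over the 8 sums (log2 CPM) and the y axis its log2 fold change, empty virus minus untransduced, in the additive fit. Filled purple points are the 21 clustered histone genes and red points the other genes that passed in the paired fit; all the purple points lie above 0.

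Ifitm1 encodes an interferon-inducible membrane protein that hinders the entry of enveloped viruses. In GRCm38 the gene lies on chromosome 7 at 140967221-140969825, plus strand. Its untransduced levels were 13.5, 19.1, 14.5 and 15.7 CPM (TMM-scaled) in WT B1, WT B2, KO B1 and KO B2, the order used throughout. Its empty-virus levels were 28.4, 33.2, 35 and 27.6 CPM. All 4 empty-virus sums were above all 4 untransduced sums, so the groups did not overlap. The log2 fold change was 0.94 ± 0.14 (SE; edgeR's quasi-likelihood test, adjusted p = 0.031), and 0.98 in the paired fit with adjusted p = 0.000229.

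Ifitm2 and Ifitm3, its neighbours in the same gene cluster and related restriction factors, did not pass in either fit. Ifitm2 had a log2 fold change of 0.08 (95% interval -0.15 to 0.32) and was higher in 3 of 4 sources. Ifitm3 had 0.20 (-0.15 to 0.54), also higher in 3 of 4. Reads that map to several places, as any shared by Ifitm1, Ifitm2 and Ifitm3 would, stayed out of the gene counts.

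Myo1f encodes a class I unconventional myosin of blood cells, which links membranes to actin. It lies on chromosome 17 at 33555707-33607764, plus strand. Untransduced levels were 10.8, 11.9, 12.3 and 10.1 CPM. Empty-virus levels were 22.3, 17.7, 24.4 and 31.4 CPM. Here too the groups did not overlap, and the KO B2 source had the largest difference. The log2 fold change was 1.04 ± 0.16 (SE; edgeR's quasi-likelihood test, adjusted p = 0.031), with adjusted p = 0.00223 in the paired fit.

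**Figure D2:**
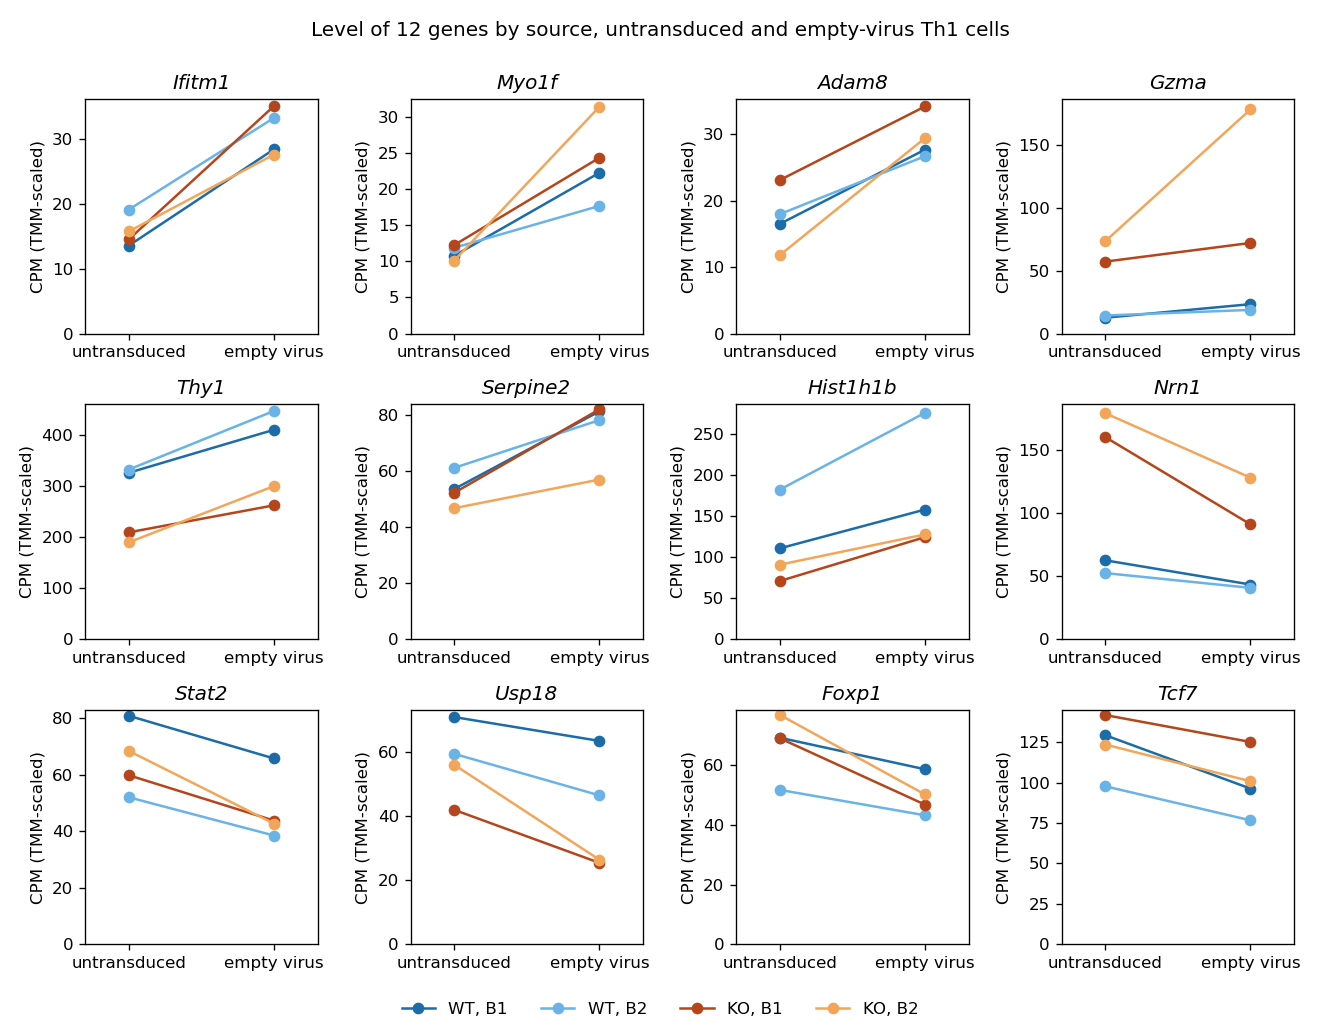
Levels (CPM, TMM-scaled, y axes from 0) of 12 genes in untransduced and empty-virus Th1 cells; each line joins the 2 sums of 1 source, with no error bar because each point is 1 sum. For Ifitm1 and Myo1f all empty-virus points lie above all untransduced points, while for Thy1 and Nrn1 the genotypes lie apart and each line still moves in the same direction.

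Replication-dependent histone genes made up most of the genes that the paired fit called higher. These genes are transcribed in S phase, mostly from clusters, and their mRNAs end in a stem-loop and not in a poly(A) tail, so that a total RNA library records them. Of 68 clustered histone genes 51 were tested, 21 rose in the paired fit and 0 fell, against 0.305% and 0.12% of all genes. The additive fit called none of them. This set was made from gene symbols after the values were seen. Of the 13 genes in the histone list 12 were tested, and 9 rose in the paired fit.

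The median log2 fold change of the 51 genes was 0.39, and 40 of them were higher in all 4 sources, where 9.13% of all genes were. By source, their median log2 difference was 0.51 in WT B1, 0.34 in WT B2, 0.38 in KO B1 and 0.48 in KO B2. Their share of all gene counts was 0.232% untransduced and 0.337% with the virus in WT B1, and 0.345% and 0.432% in WT B2. In KO B1 it was 0.206% and 0.263%, and in KO B2 0.205% and 0.279%. Every source had the higher share with the virus, though the untransduced WT B2 share was above the empty-virus share of the other 3 sources. Without the WT B1 source only 2 histone genes passed, and without KO B1 7 did. Without WT B2 14 passed, and without KO B2 21. DESeq2 with sources paired called 12 of the 51 higher, and the paired edgeR fit of unstranded counts called 12 of 45 tested. Histone genes of the same class can be near-identical copies of each other, so the single values of such genes are uncertain.

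**Figure D3:**
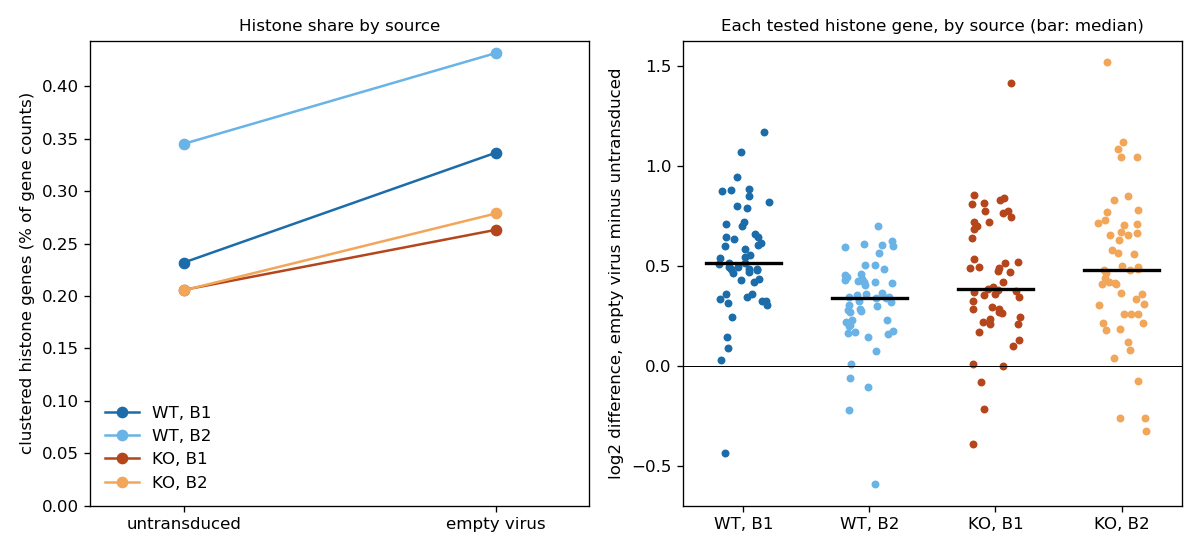
Left, the share of gene counts (%) in clustered histone genes, untransduced and with empty virus, 1 line for each source. Right, the log2 difference (empty virus minus untransduced) of each of the 51 tested histone genes in each source, with the median as a bar; the medians lie between 0.34 and 0.51.

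Hist1h1b, a linker histone H1 gene, had the smallest p of the paired fit. Untransduced levels were 110, 182, 70.5 and 90.4 CPM. Empty-virus levels were 158, 275, 124 and 127 CPM. Each source was higher with the virus, but the groups overlapped because WT B2 was high in both. Its log2 fold change was 0.60 in both fits, with adjusted p = 0.162 in the additive and 0.000216 in the paired fit (edgeR's quasi-likelihood test).

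Hist1h2ae, a core histone H2A gene, rose by a log2 fold change of 0.81 in the paired fit (adjusted p = 0.0058, edgeR's quasi-likelihood test). Its levels went from 10.3 to 23.8, 19.2 to 29.9, 11.4 to 19.4 and 12.9 to 19.3 CPM. Hist1h3b, an H3 gene, had a paired log2 fold change of 0.57 and Hist1h4d, an H4 gene, 0.37. The H1 genes Hist1h1d, Hist1h1e and Hist1h1c rose by paired log2 fold changes of 0.40, 0.34 and 0.26. H2afx, the H2A.X gene that lies outside the large clusters and also gives a polyadenylated mRNA, rose by 0.45. With unstranded counts neither Hist1h2ae nor H2afx passed in the paired fit (edgeR's quasi-likelihood test, adjusted p = 0.44 and 0.237). The genes called higher include H1, H2A, H2B (Hist1h2bc among them), H3 and H4 genes.

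The 250 bases before the start of 3 of these genes, 1 each of H1, H3 and H4, are shown because members of the set moved together. They are RefSeq promoter windows on GRCm38.p6, 5′ to 3′ on the gene's strand, and these genes were chosen after the windows had been read. Capitals mark the letters of 3 elements, searched on both strands with no overlap among them. The box CCAAT is a general promoter element. The TATA box was searched as TATAAA. The letters AAACACA are an element of H1 promoters.
Hist1h1b, chr13:21780626-21780875, minus strand: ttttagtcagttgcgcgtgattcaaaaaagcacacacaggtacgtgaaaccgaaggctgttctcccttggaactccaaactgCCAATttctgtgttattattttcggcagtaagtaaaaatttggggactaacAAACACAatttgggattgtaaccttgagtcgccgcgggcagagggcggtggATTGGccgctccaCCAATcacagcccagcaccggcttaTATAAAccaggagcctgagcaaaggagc
Hist1h3b, chr13:23752095-23752344, plus strand: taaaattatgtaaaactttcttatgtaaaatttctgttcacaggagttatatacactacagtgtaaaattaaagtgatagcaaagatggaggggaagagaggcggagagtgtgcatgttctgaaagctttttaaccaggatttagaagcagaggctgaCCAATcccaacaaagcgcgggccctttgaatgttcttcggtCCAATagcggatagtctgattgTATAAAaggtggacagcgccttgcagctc
Hist1h4d, chr13:23581318-23581567, plus strand: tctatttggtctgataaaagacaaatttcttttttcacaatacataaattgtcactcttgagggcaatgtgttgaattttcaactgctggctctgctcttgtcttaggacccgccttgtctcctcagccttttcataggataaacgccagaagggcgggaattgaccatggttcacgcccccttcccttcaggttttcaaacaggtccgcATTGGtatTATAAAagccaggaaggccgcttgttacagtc

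TATAAA began 28 bases before the start in Hist1h1b, 29 in Hist1h3b and 32 in Hist1h4d. The copy of CCAAT nearest to the start began 53, 51 and 40 bases before it. AAACACA was found in the Hist1h1b window only, 117 bases before the start. Of the 51 tested histone genes 47 matched a window. CCAAT was in 80.9% of these and in 34.2% of all 27025 windows of that length, and TATAAA in 55.3% and 12.9%. AAACACA was in 10.6% and 6.34%. Among the 8341 tested genes with a window, CCAAT was in 36.8%, TATAAA in 5.95% and AAACACA in 3.98%. A match describes letters and is no measured site.

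Cell cycle genes did not pass the test, and their values stand here because histone transcription goes with S phase. Of 30 genes of the cell cycle and replication list, all tested, none passed in either fit. The median log2 fold change was 0.14, 11 genes were higher in all 4 sources and 1 was lower, where 9.13% and 9.04% of all genes were. Ccna2, the cyclin of S phase and G2, had levels of 44.0, 52.2, 21.2 and 24.1 CPM untransduced and 56.0, 58.0, 37.5 and 42.6 CPM with the virus. Its log2 fold change was 0.47 ± 0.12 (SE; edgeR's quasi-likelihood test, adjusted p = 0.547, paired 0.0705). Rrm2, a subunit of ribonucleotide reductase, had 0.40, and Top2a and Mki67 had 0.21 and 0.14. Whether the share of cells in S phase has a part in the histone result was not tested.

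Several of the other genes called higher encode surface and effector proteins of T cells. Thy1, the glycoprotein CD90 of T cells, had untransduced levels of 326, 333, 209 and 190 CPM. Its empty-virus levels were 411, 448, 263 and 300 CPM. Each source was higher with the virus, and WT was above KO in both groups. The paired log2 fold change was 0.43 ± 0.06 (SE; edgeR's quasi-likelihood test, adjusted p = 0.0022), and adjusted p was 0.162 in the additive fit. Thy1 is also a marker of stromal cells. The 8 stromal markers summed to 186 to 358 raw CPM untransduced and 256 to 460 with the virus, of which Thy1 is the main part, and Col1a1 had no count.

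Adam8, a membrane metalloprotease of leukocytes, went from 16.5 to 27.7, 18 to 26.7, 23.1 to 34.2 and 11.8 to 29.5 CPM. The untransduced sums did not overlap with the empty-virus sums. Its paired log2 fold change was 0.73 ± 0.13 (SE; edgeR's quasi-likelihood test, adjusted p = 0.00564). Serpine2, an inhibitor of serine proteases, rose by 0.48 in the paired fit, and Tnfrsf8, the receptor CD30, by 0.33. Tfrc, the transferrin receptor of dividing cells, rose by 0.30 in the paired fit. Of the 8 other paired fits, Serpine2 and Tnfrsf8 each passed in 6 and Tfrc in 2. DESeq2 with sources paired did not call Tfrc, and it was lost with each source left out. Adam8 did not pass without WT B1 (adjusted p = 0.0723 by the same test). S100a6, a calcium-binding protein, had 0.54 in the paired fit and was lower with the virus in KO B2. It did not pass without WT B1, WT B2 or KO B1 (edgeR's quasi-likelihood test, adjusted p = 0.0723, 0.139 and 0.301), nor by DESeq2 with sources paired (adjusted p = 0.995).

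Gzma, the granule protease granzyme A, was the 1 cytotoxic gene that passed. Untransduced levels were 12.6, 14.4, 57.4 and 73.5 CPM, and empty-virus levels were 23.4, 18.9, 72.3 and 179 CPM. KO sums were above WT sums in both groups, and the KO B2 source moved most. The paired log2 fold change was 0.76 (adjusted p = 0.0042, edgeR's quasi-likelihood test). Without KO B2 it was 0.51 and did not pass (adjusted p = 0.0578 by the same test). Of the 15 genes in the list 9 were tested. Gzmb had a log2 fold change of 0.29 and Prf1, perforin, 0.41, and neither passed.

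The Th1 programme did not pass in any member: 0 of 26 tested genes of 28 listed, with a median log2 fold change of -0.01. Ifng, the defining Th1 cytokine, went from 1092 to 1073, 1160 to 1148, 300 to 444 and 432 to 380 CPM. The genotypes lay apart and only KO B1 was higher with the virus. The log2 fold change of Ifng was 0.08 (95% interval -0.13 to 0.29), and that of Tbx21, the Th1 master factor T-bet, was -0.06 (-0.26 to 0.13). Il12rb2, a chain of the IL-12 receptor, had -0.14 (-0.30 to 0.01). The chemokine genes Ccl4 and Ccl3 had 0.50 and 0.39, were higher in all 4 sources and did not pass.

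Genes of the type I interferon response were not higher as a list. Of 34 genes 23 were tested, none passed in the additive fit, and 3 fell in the paired fit, against 0.12% of all genes. The median log2 fold change was -0.18, 7 genes were lower in all 4 sources and 0 were higher, where 9.04% of all genes were lower in all 4. Ifitm1, which encodes an interferon-inducible protein and rose in both fits, was not on this list. Mx1, Mx2, Oas2 and Rsad2 were among the 11 that did not pass the filter on low counts. The 3 genes that fell were Stat2, Usp18 and Trim30a. DESeq2 with sources paired called none of them (adjusted p = 0.0679, 0.0839 and 0.206). With unstranded counts the paired edgeR test called Stat2, but not Usp18 (adjusted p = 0.0819) or Trim30a (0.0597). Of the 8 other paired fits, Stat2 passed in 3, Usp18 in 2 and Trim30a in 1. Stat2 was lost without WT B1, WT B2 or KO B1, and Trim30a with each source left out.

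Stat2, the signal transducer of the type I interferon receptor, had untransduced levels of 80.9, 52.1, 59.9 and 68.5 CPM. Its empty-virus levels were 65.8, 38.5, 43.8 and 42.8 CPM. Each source was lower with the virus, and the groups overlapped. The paired log2 fold change was -0.45 ± 0.08 (SE; edgeR's quasi-likelihood test, adjusted p = 0.0112, additive 0.646). Irf9, its partner factor, had -0.18 and did not pass.

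Usp18, a protease that removes ISG15 and damps interferon signalling, went from 71.1 to 63.6, 59.6 to 46.6, 42.1 to 25.5 and 56.1 to 26.4 CPM. The KO sources moved most. In the KO libraries alone its log2 fold change was -0.91 (edgeR's quasi-likelihood test, adjusted p = 0.00147), and in the WT libraries alone -0.24 (0.308). The test of the difference between genotypes gave an unadjusted p of 0.0274 and an adjusted p of 1. Trim30a, a TRIM protein induced by interferon, had a paired log2 fold change of -0.38 with adjusted p = 0.0466.

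All 29 genes of the list of retroviral restriction and provirus silencing were tested. Ifitm1 rose in both fits and Trim30a fell in the paired fit, and no other gene passed. The median log2 fold change was -0.08, and 9 genes were lower in all 4 sources, where 9.04% of all genes were. Samhd1, which depletes the nucleotides needed for reverse transcription, had levels of 944, 814, 1423 and 1246 CPM untransduced and 821, 777, 1149 and 906 CPM with the virus. Its log2 fold change was -0.26 with a paired adjusted p of 0.0619 (edgeR's quasi-likelihood test). Apobec3, a deaminase of viral DNA, had -0.08, Bst2, which tethers virions, -0.10, and Trim28, a silencer of proviruses, -0.09. Slc7a1, the receptor of ecotropic murine retroviruses, had 0.12, and none of the 4 entry receptor genes passed.

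The lists of nucleic acid sensing and of p53 targets had no gene past the threshold. Of 20 sensing genes 13 were tested, with a median log2 fold change of -0.004, and of 24 p53 targets and damage genes all were tested, with a median of 0.07. Of 18 genes of double-strand break repair, all tested, 1 rose in the paired fit, H2afx. Cdkn1a, the p53 target p21, had levels of 133, 146, 144 and 137 CPM untransduced and 128, 133, 152 and 149 CPM with the virus. Its log2 fold change was -0.004 (95% interval -0.18 to 0.17). Of the 37 gene lists 30 had no gene past the threshold in either fit, among them glycolysis, the unfolded protein response, heat shock genes and NF-kB targets.

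**Figure D4:**
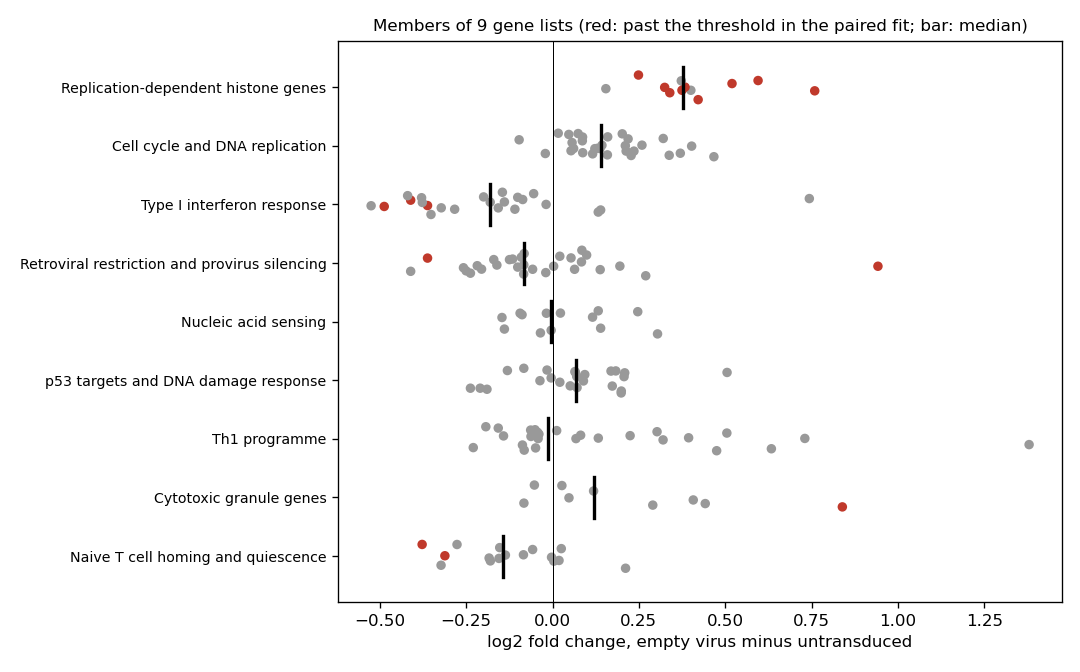
Each point is a tested member of 1 of 9 gene lists, placed by its log2 fold change, empty virus minus untransduced, in the additive fit; red points passed in the paired fit and black bars are medians. The histone list is the one with 9 red points, all above 0, and the interferon list has 3 red points below 0.

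A pair of factors of naive and resting T cells passed as lower in the paired fit, by small amounts, but in few of its other settings. Of 16 genes of the homing and quiescence list, all tested, 2 fell in the paired fit, against 0.12% of all genes. In all 4 sources 9 were lower, where 9.04% of all genes were. Tcf7, the factor TCF1 of naive and memory T cells, went from 129 to 96.3, 97.7 to 76.6, 142 to 125 and 124 to 101 CPM. Its paired log2 fold change was -0.32 ± 0.07 (SE; edgeR's quasi-likelihood test, adjusted p = 0.0424). Foxp1, a factor that keeps naive T cells quiescent, went from 69.2 to 58.7, 51.7 to 43.2, 69.1 to 46.8 and 76.9 to 50.2 CPM. Its paired log2 fold change was -0.40 ± 0.09 (adjusted p = 0.0334, edgeR's quasi-likelihood test). DESeq2 with sources paired called neither Tcf7 nor Foxp1 (adjusted p = 0.164 and 0.181). Of the 8 other paired fits, Tcf7 passed in 2 and Foxp1 in 1, and Foxp1 was lost with each source left out.

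Nrn1, which encodes the small membrane-anchored protein neuritin, had the smallest p among genes lower in the paired fit. Untransduced levels were 62.4, 52.2, 160 and 179 CPM. Empty-virus levels were 43.1, 40.5, 90.9 and 128 CPM. KO sums were above WT sums in both groups, and every source was lower with the virus. Its paired log2 fold change was -0.56 ± 0.08 (SE; edgeR's quasi-likelihood test, adjusted p = 0.00129, additive 0.222). Selp, which encodes P-selectin, had -0.52 in the paired fit, Maged2 -0.45, Rgs2, a regulator of G protein signalling, -0.43, and Nfat5, a factor of the response to osmotic stress, -0.31. Malat1, a nuclear long noncoding RNA, fell by 0.25 on the log2 scale. Of the 8 other paired fits, Selp and Maged2 passed in 3, Malat1 in 2, and Rgs2 and Nfat5 in 1. DESeq2 with sources paired called Malat1 but not Selp, Maged2, Rgs2 or Nfat5. Rgs2 and Malat1 were lost with each source left out.

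The WT libraries, whose labels do not conflict, gave 56 genes higher (0.521%) and 57 lower (0.531%) of 10740 tested, with B number as a factor. The KO libraries gave 18 higher (0.18%) and 11 lower (0.11%) of 9982. These fits rest on 4 sums each and 1 residual degree of freedom. When the spread was pooled over all 8 sums with no factor for B number, both gave 0 calls by edgeR's quasi-likelihood test, with 251 genes at unadjusted p under 0.05 in WT and 517 in KO. Of the 56 WT higher calls, 26 were clustered histone genes, and of the 57 WT lower calls 22 were small nuclear, nucleolar and other small RNA genes. In KO these were 2 of the 18 higher and 3 of the 11 lower calls. Among all 10804 genes of the additive fit were 51 clustered histone, 85 small nucleolar, 31 small nuclear and 15 rRNA genes.

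There were 11 genes called in both genotypes, 9.82% of the WT calls and 37.9% of the KO calls. Adam8, Gzma, Hist1h1b, Hist1h4f, Ifitm1, Myo1f and Thy1 were higher and Nrn1 and the snRNA gene Gm22513 lower in both, and the rRNA genes Gm24601 and n-R5-8s1 went opposite ways. Of the WT calls 88 of 112 had the same sign in KO, and of the KO calls 22 of 29 had the same sign in WT. The share with the same sign among all 9927 genes tested in both was not counted, so these counts stand without a background. Over 7272 genes of at least 10 CPM, the WT and KO effects had a Pearson r of 0.257 as a description across genes, which are not independent replicates. The WT and KO sums share no library.

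The effect of the virus was not shown to differ between genotypes. The test of that difference called 0 of 10804 genes by edgeR's quasi-likelihood test, with 258 at unadjusted p under 0.05, and DESeq2 called 0. With sources as a block it called 0 as well, with 445 at unadjusted p under 0.05. Leaving out WT B1, WT B2, KO B1 or KO B2 gave 12, 0, 69 and 20 calls. The 6 genes with the smallest p were Zfp472, Spp1, Fscn1, Tex2, Limk2 and Casz1. Spp1, which encodes the cytokine osteopontin, went from 184 to 159 and 204 to 163 CPM in WT B1 and B2. In KO B1 and B2 it went from 83.8 to 144 and 107 to 139 CPM. Both WT sources were lower and both KO sources higher with the virus, and the log2 difference of KO minus WT was 0.85 ± 0.19 (SE; edgeR's quasi-likelihood test, unadjusted p = 0.000473, adjusted p = 1, with the block 0.246). Fscn1, which encodes the actin-bundling protein fascin, had a difference of -1.35, with adjusted p = 1.

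For B number the result depended on the fit. In the fit with genotype and B number as factors, the difference between B2 and B1 in the effect was called for 0 genes by edgeR's quasi-likelihood test (231 at unadjusted p under 0.05) and 0 by DESeq2. The 6 genes with the smallest p were Gm37194, Zfp459, Gm24044, AA474408, Gm10800 and Txk, each at adjusted p = 0.9997. With sources as a block 4 genes were called, with 355 at unadjusted p under 0.05. The snoRNA genes Snord22, Gm25835 and Gm24044 had a larger log2 fold change in B2 than in B1, by 1.67, 1.28 and 2.12, and Gm37194, a gene model not yet verified by experiment, had a smaller one, by a difference of -2.52 (edgeR's quasi-likelihood test, adjusted p = 0.00197, 0.00197, 0.00467 and 0.00779). Leaving out a source gave 9 to 45 calls. KO and WT sums differed in 622 genes higher and 600 lower, 1222 of 10804, in the additive fit (edgeR's quasi-likelihood test). That fit counts the untransduced and the empty-virus sum of a source as separate samples of a genotype. The same test called 332 genes for the interaction of genotype and B number, so differences among sources of a genotype can pass it.

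The precision of the additive fit over these 8 sums differed with level. The median SE of the log2 fold change was 0.277 for genes under 10 CPM, 0.131 for genes of 10 to 50 CPM and 0.0914 for genes above 50 CPM. The 95% interval reached 0.193 to either side for the median gene above 50 CPM. Of these genes, 99.7% had a log2 fold change under 0.5 in size. For the median gene under 10 CPM it reached 0.585.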

How the data were processed

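Per the labels' protocols, strand-specific libraries were made from total RNA and sequenced from both ends, on a NextSeq or a NovaSeq. The authors deposited raw read counts per gene, made with STAR 2.5.0a on GRCm38 per the submitters' processing notes. Column 4, which held 93.5% to 95.1% of the stranded counts of the 12 libraries, was used. Summary lines that name no gene took 63.6% to 74.3% of tabulated reads and stayed out. Symbols and coordinates came from GENCODE M21, which matched 45143 of 45706 identifiers.

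Counts were summed within source, filtered by filterByExpr, scaled by TMM and tested with edgeR 4.0.16 (quasi-likelihood, Benjamini-Hochberg). DESeq2 1.42.0 and other settings were alternatives. Within-source log2 differences added 0.5 CPM. The steps were tested on simulated data. The 2 libraries of a source differed beyond sampling noise (chi-square test, genes with 10 or more counts). Deviations from the mean of each transduction group correlated between the sums of a source (r = 0.502 to 0.7 over 7272 genes). These deviations still hold the differences of genotype and B number, so they do not establish the pairing. What genotype and B number leave had r = 0.311, which rests on a single contrast in each transduction group.

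Named genes were, by rule, the largest changes past the threshold of the additive fit, genes of the 37 lists, and 6 genes for each interaction. Members and lists were chosen with earlier results of these data known. Floors and intervals cover counting error or the spread between these samples only. Virus sequences were not analysed here.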

Additional observations from a re-analysis of the deposited data

Results flagged for a closer look

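In 3 of 65 named genes, 1 source stood far from the other 3 in its log2 difference between empty virus and untransduced cells, by Dixon's criterion for 4 values. Chance alone gives about 1 such gene in 20. All 3 were in KO B2, the source with the shallowest untransduced and the deepest empty-virus sum. Maf, a factor of IL-10 and Th2 cytokine expression, was at 1.02 in KO B2 and at 0.31 to 0.33 in the others. Ccr7, a homing receptor of naive T cells, was at -0.79 in KO B2 and between -0.18 and -0.06 elsewhere. Top2a, a topoisomerase of dividing cells, was at 0.525 in KO B2 and at 0.09 to 0.12 elsewhere. None of these genes passed in either fit.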

How the results depend on the processing

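Of 1668 gene values under other settings, 1429 stayed on the same side of the threshold with no called gene changing direction, 227 newly passed, mostly with sources paired or left out, and 12 no longer passed; 29 uncalled values had the other sign. Ifitm1 and Myo1f each passed in 18 of 24 settings, with log2 fold changes of 0.85 to 1.10 and 0.87 to 1.17 and adjusted p up to 0.319. Both were lost with T number 1 only and without the untransduced WT B1, KO B1 or KO B2 or the empty-virus WT B1 sum. Ifitm1 was also lost without the empty-virus WT B2 sum, and Myo1f without that of KO B2.

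The 2 calls of the additive fit became 4 with DESeq2, 59 with no filter on low counts, 0 with T number 1 only, 9 with the 12 libraries separately and 46 with sources as a replicate block. Leaving out sources or sums gave 0 to 69 calls: 9 without WT B1, 35 without WT B2, 14 without KO B1 and 69 without KO B2. With 3 sources left, the additive and the paired fit are the same. Further settings with the replicate block were added after seeing the data: 23 calls with DESeq2, 25 with unstranded counts, 43 with upper-quartile scaling and 27 with T number 1 only, and for the differences between genotypes and between B numbers 0 and 4 calls. The genotype difference had 11 calls with no filter and 0 to 69 with a source left out, 69 of them without KO B1. The B number difference had 16 and 9 to 45, the latter without WT B2. In WT alone the 113 calls became 0 with no replicate block, 0 with group means over 8 sums and 0 to 5 with a replicate left out; in KO alone the 29 became 0, 0 and 0. The causes were not tested. List medians kept their sign for histone, interferon, cell cycle and naive genes under TMM, upper-quartile and DESeq2 scaling, while that of the Th1 programme, near 0, did not.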

Other observations

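Small RNA genes were not a comparison of the study, and their set was chosen after the values were seen. Over 85 tested snoRNA genes, which guide the modification of ribosomal RNA, the median log2 fold change was -0.49, and over 31 snRNA genes of the spliceosome it was -0.60. The sources did not move alike: the snoRNA medians were -0.31 in WT B1, -0.63 in WT B2, -0.54 in KO B1 and 0.35 in KO B2. The snRNA medians were -0.18, -0.90, -0.77 and 0.35. No snoRNA gene passed in either fit, and 1 of the 31 snRNA genes, lower, passed in the paired fit.

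Of 12 NK-type receptor genes 5 were tested and none passed. Klrk1, which encodes NKG2D, went from 13.1 to 18.6, 12.4 to 12.8, 12.5 to 17.5 and 5.61 to 14.9 CPM in WT B1, WT B2, KO B1 and KO B2, and its log2 fold change was 0.48. Klrc1, which encodes NKG2A, had 0.42. Both were higher in all 4 sources.

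In the Th2 list 0 of 15 tested genes passed. Il24, a cytokine gene of the IL-10 family, was lower in all 4 sources, with a log2 fold change of -0.26 and a paired adjusted p of 0.0605 by edgeR's quasi-likelihood test. Gata3, the Th2 master factor, was lower in both WT sources and higher in both KO sources with the virus, with an unadjusted p of 0.0373 and an adjusted p of 1 for the difference between genotypes by the same test.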
